A study of Mus musculus with 6 samples.

Results

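The SOX transcription factors were followed in the RNA of intestinal adenomas from the Apc1322T and ApcMin mouse models through 10 genes: *Sox2*, *Sox4*, *Sox5*, *Sox6*, *Sox7*, *Sox9*, *Sox13*, *Sox17*, *Sox18* and *Sox21*. The family was chosen by the measured difference of *Sox17* and *Sox21* between the models in these same libraries, so the values of those genes are given as a description and without a test. The members are 10 of the 34866 genes in the table, and 9 of them were among the 16536 genes with enough reads to be tested, *Sox2* being the exception. The libraries came from adenomas excised from C57BL/6J mice 100 to 120 days old, of genotype Apc1322T/+ (3 libraries) or ApcMin/+ (3 libraries). Both alleles are germline truncations of *Apc*, the scaffold that marks β-catenin for destruction, and adenomas arise after the remaining normal copy is lost in an epithelial cell. The Apc1322T truncation is the longer one and keeps β-catenin binding sites that the ApcMin truncation lacks. A library was typically made from several RNA extractions of a single mouse, and no normal mucosa is compared here. The tissue was whole, so a member's RNA may come from epithelium, vessels, stroma or other cells, and fewer cells of a type cannot be told apart from less RNA per cell.

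SOX proteins bind DNA through an HMG box, a fold that fits into the minor groove and bends the helix, and they usually act together with partner factors. Several of them meet the Wnt pathway at β-catenin or at TCF/LEF, the factors that carry β-catenin to its target genes and that have an HMG box of the same fold. In the intestine SOX9 is best known from the crypt, where it is a Wnt target needed for Paneth cells, whereas SOX7, SOX17 and SOX18 (the SOXF group) are best known from vessel endothelium, and SOX17 also from the making of the endoderm that gives rise to the gut. SOX2 and SOX21 belong to the SOXB group and are known from neural progenitors and from the anterior gut.

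The HMG box is what the members have in common, and its coding sequence shows which of them are close relatives. The 69 codons that begin at the arginine-proline-methionine stretch of the box are printed for *Sox17* and *Sox21*, the genes with the widest gap between the models, each beside a close relative. Sequences are from GENCODE M21 transcripts (GRCm38), written 5′ to 3′ on the coding strand, and capitals mark the 73 of 207 bases that are the same in all 10 members. *Sox17* codes for it in codons 70 to 138 of 419, in 2 exon blocks of the minus strand (chr1:4492562-4493199), and *Sox18* in 2 blocks of the minus strand (chr2:181670890-181671281), these spans including the intron. *Sox21* codes for it within 1 exon block of the minus strand, in codons 10 to 78 of 276 (chr14:118235402-118235608), and *Sox2* within 1 block of the plus strand (chr3:34650548-34650754).
Sox17: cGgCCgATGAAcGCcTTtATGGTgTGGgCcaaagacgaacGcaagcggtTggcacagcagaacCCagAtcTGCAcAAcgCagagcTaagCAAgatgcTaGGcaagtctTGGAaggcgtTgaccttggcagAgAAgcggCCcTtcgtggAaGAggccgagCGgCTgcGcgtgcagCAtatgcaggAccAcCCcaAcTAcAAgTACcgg
Sox18: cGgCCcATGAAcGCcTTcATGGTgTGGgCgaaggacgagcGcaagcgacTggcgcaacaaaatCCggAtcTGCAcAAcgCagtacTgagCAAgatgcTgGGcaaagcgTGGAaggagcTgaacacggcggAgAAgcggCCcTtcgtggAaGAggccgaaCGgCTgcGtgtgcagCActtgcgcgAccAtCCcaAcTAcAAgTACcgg
Sox21: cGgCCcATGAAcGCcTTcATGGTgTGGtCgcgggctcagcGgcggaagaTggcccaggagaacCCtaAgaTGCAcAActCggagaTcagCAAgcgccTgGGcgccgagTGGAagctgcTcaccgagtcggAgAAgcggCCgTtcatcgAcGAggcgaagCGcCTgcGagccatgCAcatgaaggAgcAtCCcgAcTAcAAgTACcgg
Sox2: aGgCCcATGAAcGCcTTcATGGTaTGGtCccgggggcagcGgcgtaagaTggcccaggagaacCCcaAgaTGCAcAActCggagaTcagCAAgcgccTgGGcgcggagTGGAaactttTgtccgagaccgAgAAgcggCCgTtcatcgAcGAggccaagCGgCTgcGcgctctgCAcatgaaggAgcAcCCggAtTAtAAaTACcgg

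Over these 69 codons the box of SOX17 shared 62 residues with SOX18 (89.9%) and also 62 with SOX7, while SOX7 and SOX18 shared 55 (79.7%). SOX21 and SOX2 shared 65 residues (94.2%), as did SOX5 and SOX13. Across groups the likeness was lower, with 43 shared residues (62.3%) between SOX17 and SOX21, and the least alike pair was SOX6 and SOX9 with 33 (47.8%). The longest run of bases that any pair of members shared exactly over their whole transcripts was 38, between *Sox2* and *Sox21*, which is shorter than the 50-base reads, and *Sox17* and *Sox18* shared at most 29.

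Read totals ran from 23132461 to 33518324 per library, so that 3 reads were worth 0.0895 to 0.130 CPM (counts scaled to a common library total). Levels below are CPM after TMM scaling unless stated, and log2 differences are ApcMin minus Apc1322T, with the standard error of the fit. Between the models, 0 of 16536 genes (0%) passed the adjusted p threshold of 0.01 in edgeR's quasi-likelihood test, the smallest adjusted p being 0.0485, and 2495 genes (15.1%) had an unadjusted p under 0.05, of which 1239 were higher in ApcMin and 1256 lower. DESeq2, run as an alternative, called 194 of 17356 genes (1.12%). In 3468 genes (21.0%) the 3 libraries of one model lay wholly above the 3 of the other, with ApcMin above in 1821 (11.0%) and below in 1647 (9.96%). The median log2 difference over all genes tested was 0.017. *Apc* itself, whose read counts do not tell the alleles apart, was at 6.42, 6.41 and 6.47 log2 CPM in Apc1322T and at 6.82, 6.80 and 6.97 in ApcMin, without overlap. Its log2 difference was 0.43 (SE 0.081), with an adjusted p of 0.257 in edgeR's test and 0.00927 in DESeq2's.

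*Sox17* (chr1:4490931-4497354, minus strand) showed the widest gap of the family. It had 441, 192 and 156 counts in the Apc1322T libraries (replicates 1, 2 and 3) and 1752, 2554 and 5491 in the ApcMin libraries, or 16.2, 9.12 and 6.83 CPM against 48.9, 100 and 174 CPM. Every ApcMin library lay above every Apc1322T library, with 1.59 on the log2 scale between the nearest of them, and the levels also spread within each model, 2.35-fold among the Apc1322T libraries and 3.54-fold among the ApcMin libraries. The mean was 10.7 ± 4.87 CPM (SD, n = 3) in Apc1322T and 108 ± 62.6 CPM (SD, n = 3) in ApcMin, a ratio of 10.1. The fitted log2 difference was 3.32 (SE 0.56), which placed *Sox17* at rank 37 of 16536 genes from the highest, and at rank 17 of the 11867 genes with a mean of at least 5 CPM. Leaving out 1 library at a time moved it between 2.79 (without ApcMin replicate 3) and 3.75 (without Apc1322T replicate 1). These values chose the family and support nothing further.

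**Figure D1:**
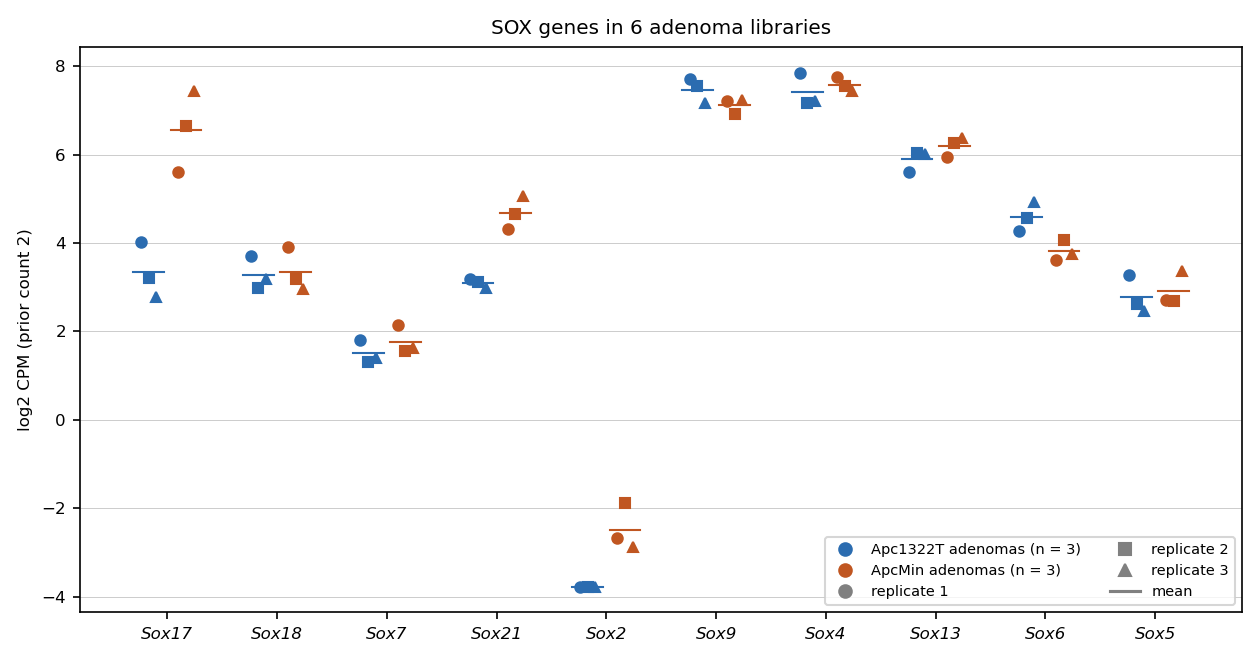
Level of each of the 10 SOX members in every library, as log2 CPM with TMM scaling and a prior count of 2; points are libraries, shaped by replicate number and coloured by genotype, and lines are genotype means. *Sox17* and *Sox21* sit higher in all 3 ApcMin libraries and *Sox6* sits lower, while the other tested members overlap; *Sox2* lies near the floor that the prior count sets.

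The other SOXF members did not separate the models. *Sox18* (chr2:181669836-181671640, minus strand), known from lymphatic and blood vessel development, had 352, 165 and 206 counts in Apc1322T and 537, 229 and 244 in ApcMin. In CPM these were 12.9, 7.84 and 9.02 against 15.0, 9.00 and 7.71, so the lowest of the 6 libraries was an ApcMin one. The log2 difference was 0.091 (SE 0.31, adjusted p = 0.902), and it took the opposite sign without Apc1322T replicate 2 (-0.050) and without ApcMin replicate 1 (-0.25). *Sox7* (chr14:63943673-63950732), which acts beside them in endothelium, had 94, 51 and 59 counts against 155, 73 and 95, with overlapping levels of 2.42 to 3.45 CPM and 2.87 to 4.33 CPM (log2 difference 0.27, SE 0.27, adjusted p = 0.639). *Sox17* and *Sox18* stood in opposite order in the models when compared per kilobase of exon. In Apc1322T *Sox18* was at 6.13 ± 1.64 and *Sox17* at 2.24 ± 1.02 CPM per kb (SD, n = 3), and in ApcMin *Sox18* was at 6.53 ± 2.40 and *Sox17* at 22.6 ± 13.1 CPM per kb. With the longest transcript as the length instead of all exons, the Apc1322T ranges touched, *Sox17* reaching up to 4.99 CPM per kb and *Sox18* down to 4.84.

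*Sox21* (chr14:118233232-118237030, minus strand), a SOXB factor known for opposing SOX2-type activation in neural progenitors, was the other gene that led to the choice of the family. It had 248, 180 and 180 counts in Apc1322T and 716, 642 and 1064 in ApcMin, or 9.10, 8.55 and 7.88 CPM against 20.0, 25.2 and 33.6 CPM. The Apc1322T libraries lay close together and all ApcMin libraries lay above them by at least 1.13 on the log2 scale. The means were 8.51 ± 0.610 CPM (SD, n = 3) and 26.3 ± 6.88 CPM (SD, n = 3), a ratio of 3.09, and the fitted log2 difference was 1.63 (SE 0.20), at rank 221 of 16536 genes from the highest. It stayed between 1.41 and 1.79 when 1 library was left out. ApcMin replicate 3 was the highest library for *Sox21* as for *Sox17*, and Apc1322T replicate 3 the lowest for both.

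*Sox2* (chr3:34650405-34652461), the pluripotency and foregut factor whose box is closest to that of *Sox21*, was nearly undetected. It had 0 counts in all 3 Apc1322T libraries and 3, 5 and 2 counts in ApcMin. Summed over each model, the 0 counts in Apc1322T allow up to 0.0400 CPM when taken as 3 counts (exact Poisson 95% upper limit 0.0492), and the 10 counts in ApcMin correspond to 0.114 CPM (exact Poisson 95% interval 0.0546 to 0.209). These limits cover counting error only, and the CPM of the sums used read totals without TMM scaling. The ApcMin libraries lay above, at the level of a few reads each, and *Sox2* was below the filter of the test.

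*Sox9* (chr11:112782224-112787760) and *Sox4* (chr13:28948919-28953713) carried most of the family's RNA. *Sox9*, the crypt and Paneth cell factor, was at 208, 187 and 144 CPM in Apc1322T and 149, 122 and 151 CPM in ApcMin. The ranges overlapped, and the log2 difference of -0.35 (SE 0.16) did not pass the test (adjusted p = 0.349). It stayed below 0 in each leave-one-out fit, from -0.49 to -0.23. *Sox4*, a SOXC factor known from progenitor cells and from tuft and endocrine differentiation, was at 231, 145 and 149 CPM in Apc1322T and 217, 187 and 174 CPM in ApcMin. Its Apc1322T replicate 1 was the highest of all 6 libraries and the other Apc1322T libraries the lowest (log2 difference 0.14, SE 0.20, adjusted p = 0.753).

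The SOXD members, which have no activation domain of their own and pair through a coiled coil, did not pass the test, with 1 of the 3 fitted below 0 and 2 above. *Sox6* (chr7:115470872-116038796) was the only tested member besides *Sox17* and *Sox21* whose libraries did not overlap between the models, and it was the one with lower ApcMin values. It had 527, 496 and 698 counts in Apc1322T and 436, 422 and 427 in ApcMin, or 19.3, 23.6 and 30.6 CPM against 12.2, 16.6 and 13.5 CPM. The log2 difference was -0.80 (SE 0.20) and did not pass edgeR's test (adjusted p = 0.264) or DESeq2 at the same threshold (adjusted p = 0.0254). Without any single library it lay between -0.94 and -0.61. *Sox13* (chr1:133382303-133424377), known from γδ T cells and as a partner of TCF1, was at 49.0, 65.6 and 64.8 CPM in Apc1322T and 61.1, 77.4 and 83.5 CPM in ApcMin, overlapping by 1 library (log2 difference 0.31, SE 0.16, adjusted p = 0.398). *Sox5* (chr6:143828425-144781977), the partner of *Sox6* in cartilage, was at 9.61, 6.08 and 5.47 CPM against 6.51, 6.37 and 10.2 CPM. Its log2 difference of 0.12 (SE 0.30, adjusted p = 0.855) took the opposite sign without Apc1322T replicate 3 (-0.032) or ApcMin replicate 3 (-0.14).

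Of the 8 members other than *Sox17* and *Sox21*, 7 were tested, and 0 passed the adjusted threshold in edgeR or in DESeq2. 1 of the 7, *Sox6*, had an unadjusted p under 0.05, beside 15.1% of all genes, and 1 of the 7 did not overlap between the models, beside 21.0%. Their median log2 difference was 0.12 with 5 above 0 and 2 below, against 0.017 over all genes. Over all 9 tested members, including those whose values chose the family, the median was 0.14 and 3 did not overlap. Apc1322T replicate 1 bore on this count: without it 6 of 9 members separated, *Sox4*, *Sox5* and *Sox7* joining on the ApcMin side, but so did 48.0% of all genes. Without any other single library the count was 3 or 4, with 25.1% to 31.8% of all genes.

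**Figure D2:**
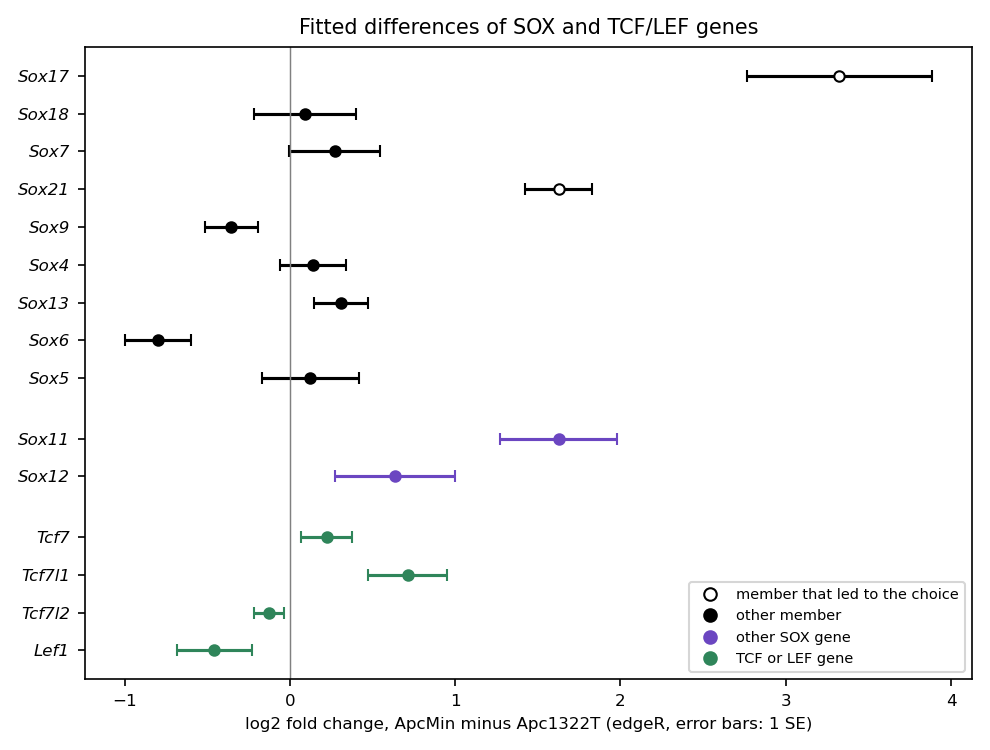
Log2 difference (ApcMin minus Apc1322T) of the tested SOX members, other SOX genes and TCF/LEF genes in edgeR's fit; points are estimates, bars 1 standard error, and open points mark the members that led to the choice. *Sox17* at 3.32 and *Sox21* at 1.63, whose values chose the family, lie far to the right, *Sox6* at -0.80 lies to the left, and the remaining members lie between -0.35 and 0.31.

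Ranked by level per kilobase of exon over all 6 libraries, *Sox9* (38.7 CPM per kb) and *Sox4* (38.3) came first, followed by *Sox13* (15.5), *Sox17* (12.4), *Sox18* (6.33), *Sox21* (4.58), *Sox6* (1.30), *Sox7* (0.943), *Sox5* (0.513) and *Sox2* (0.0278). In Apc1322T the ranges of *Sox9* and *Sox4* overlapped, as did those of *Sox17* and *Sox21*, and the other neighbours in the order did not. In ApcMin the order was *Sox4*, *Sox9*, *Sox17*, *Sox13*, *Sox21*, *Sox18*, *Sox7*, *Sox6*, *Sox5* and *Sox2*. There the ranges overlapped between *Sox4* and *Sox9*, *Sox9* and *Sox17*, *Sox17* and *Sox13*, *Sox21* and *Sox18*, and *Sox7* and *Sox6*. In ApcMin replicate 3, *Sox17* at 36.4 CPM per kb stood level with *Sox4* (36.3) and *Sox9* (36.6).

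The make-up of the family's RNA differed accordingly, which restates the values that chose it. Of the summed level per kilobase over the 10 members, *Sox17* made up 2.68%, 1.87% and 1.54% in the Apc1322T libraries and 8.35%, 17.2% and 25.1% in the ApcMin libraries. *Sox21* made up 1.89% to 2.22% and 4.29% to 6.12%. *Sox4* and *Sox9* together made up 70.7% to 77.8% in Apc1322T and 50.3% to 66.1% in ApcMin. The sum itself overlapped, at 127, 102 and 93.3 CPM per kb in Apc1322T and 123, 122 and 145 in ApcMin.

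**Figure D3:**
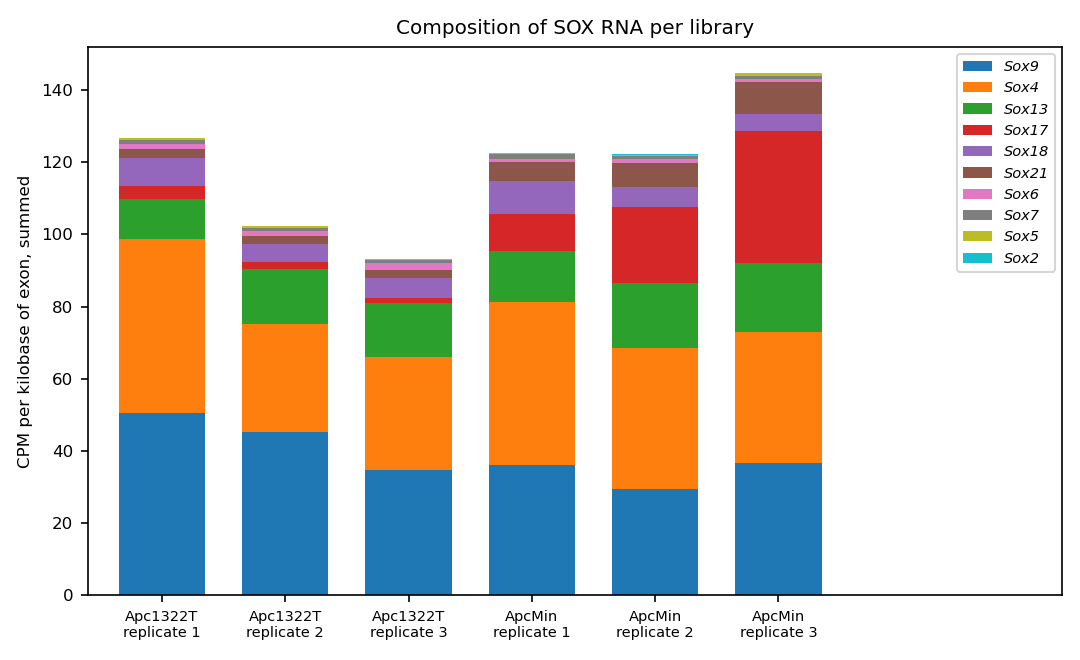
Summed level of the 10 SOX members (CPM per kilobase of exon) in each library, stacked by gene. The *Sox17* section is 1.54% to 2.68% of the bar in Apc1322T and 8.35% to 25.1% in ApcMin, while *Sox4* and *Sox9* together hold the greater part of every bar.

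Of the 10 SOX genes outside the members, 2 passed the filter. *Sox11*, a SOXC relative of *Sox4* known from developing neurons, had 48, 28 and 41 counts in Apc1322T and 157, 189 and 106 in ApcMin. The models did not overlap, and the log2 difference of 1.63 (SE 0.35) did not pass edgeR's test (adjusted p = 0.257) but did pass DESeq2's (adjusted p = 0.00604). *Sox12*, the third SOXC gene, overlapped (log2 difference 0.64, SE 0.36, adjusted p = 0.424). *Sox8*, a relative of *Sox9*, had 1, 1 and 0 counts in Apc1322T and 9, 7 and 8 in ApcMin. Over read totals without TMM scaling, the sums were 0.0267 CPM (exact Poisson 95% interval 0.00323 to 0.0964) against 0.273 CPM (0.175 to 0.406). *Sox10*, the factor of enteric glia, had 2 to 5 counts against 4 to 14. *Sox30*, known from the testis, had 5 to 24 counts in Apc1322T and 6 to 12 in ApcMin. *Sox1*, *Sox3*, *Sox14* and *Sox15* had at most 3 counts in any library, and *Sry* had 0 in all.

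The TCF/LEF factors, which share the HMG box fold and bring β-catenin to Wnt target genes, did not pass the test in edgeR or DESeq2 (0 of 4), and 1 had an unadjusted p under 0.05, beside 15.1% of all genes. *Tcf7l1*, known mainly as a repressor of Wnt targets, had 41, 41 and 40 counts in Apc1322T and 96, 70 and 98 in ApcMin, without overlap (log2 difference 0.71, SE 0.24, adjusted p = 0.288). *Tcf7l2*, the main TCF of the intestinal epithelium, was at -0.13 (SE 0.091, adjusted p = 0.517). *Tcf7* was at 0.22 (SE 0.16, adjusted p = 0.503) and *Lef1*, itself a Wnt target, at -0.46 (SE 0.23, adjusted p = 0.375).

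Of 8 genes known as SOXF targets in vessels, 6 had log2 differences above 0 and 2 below, with a median of 0.41 against 0.017 over all genes. None passed the adjusted threshold in edgeR, 4 had an unadjusted p under 0.05 (15.1% of all genes), and DESeq2 called 1 (1.12% of all genes). In 3 of them (*Cdh5*, *Vcam1* and *Egfl7*) the libraries did not overlap, all with ApcMin above, beside 11.0% of all genes. *Cdh5*, the cadherin of endothelial junctions, had 1091, 404 and 397 counts in Apc1322T and 2064, 1418 and 2740 in ApcMin, or 40.0, 19.2 and 17.4 CPM against 57.7, 55.8 and 86.6 CPM. Its log2 difference was 1.38 (SE 0.37), with an adjusted p of 0.279 in edgeR and 0.00669 in DESeq2. *Vcam1*, an adhesion molecule for leukocytes, was at 4.92, 3.23 and 4.03 CPM against 14.1, 5.50 and 10.5 CPM (log2 difference 1.31, SE 0.36, adjusted p = 0.279). *Egfl7*, secreted by endothelium, differed by 0.41 (SE 0.15, adjusted p = 0.311). *Cldn5* was at 0.53, *Prox1* at 0.41, *Notch1* at 0.26, *Efnb2* at -0.080 and *Dll4* at -0.060, the last with the opposite sign without ApcMin replicate 2 (0.057) or replicate 3 (0.17).

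All 5 genes known to respond to SOX9 in intestinal epithelium had log2 differences below 0 (median -0.45) and none passed the threshold, the smallest adjusted p in edgeR's test being 0.288. An unadjusted p under 0.05 was found for 2 of them, beside 15.1% of all genes, and DESeq2 called 0. *Cdx2*, the intestinal identity factor (-0.50, SE 0.19), and *Cldn7*, a tight junction claudin (-0.42, SE 0.14), did not overlap between the models, both being lower in ApcMin, as 9.96% of all genes were. The mucin *Muc2* was at -0.51, *Prkca* at -0.45 and *Ceacam1* at -0.32, with overlapping libraries. The list does not separate genes that SOX9 raises from genes that it lowers, and a link to the *Sox9* level was not tested.

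Markers of several cell types had values on one side of 0 in most or all of their genes, with 0 genes of any list past the adjusted threshold in edgeR. All 14 blood endothelium markers had log2 differences above 0 (0.15 to 1.38, median 0.42), and 3 of the 14 did not overlap, beside 11.0% of all genes on that side. None passed in edgeR, and DESeq2 called 1, *Cdh5* (1.12% of all genes). Their summed level was 197 to 318 CPM in Apc1322T and 294 to 404 CPM in ApcMin, and none was at 0. *Cdh5* and *Egfl7* belong to this list and to the SOXF targets. All 4 lymphatic markers were above 0 too (median 0.44), 2 without overlap beside 11.0% of all genes. DESeq2 called 1 of them, *Mmrn1* (1.12% of all genes). They summed to 145 to 187 and 159 to 261 CPM. Most of each sum was *Prox1*, at 133 to 171.3 CPM in Apc1322T and 139.7 to 240.5 CPM in ApcMin. *Lyve1*, *Flt4* and *Mmrn1* each lay between 2.61 and 7.86 CPM over all 6 libraries. *Prox1* is also on the list of SOXF targets. Which cells of the whole tissue the *Prox1* reads came from was not tested. The sum of this list therefore cannot be read as a level of lymphatic endothelium. *Sox18* and *Sox7*, which also mark endothelium, overlapped between the models as given above. The part of endothelial content in the *Sox17*, *Cdh5* and *Vcam1* values was not tested.

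Stratified squamous epithelium, a tissue in which SOX2 and SOX21 are known, was represented by 19 markers, of which 13 were tested and 12 of those had log2 differences above 0 (median 0.75, range -0.81 to 3.82), 6 without overlap with ApcMin above (11.0% of all genes) and 1 with ApcMin below (9.96%). None passed in edgeR. An unadjusted p under 0.05 was found for 7 (15.1% of all genes), 6 higher in ApcMin and 1 lower. DESeq2 called 4 (1.12% of all genes), all higher in ApcMin. *Krt14*, a basal keratin, had 86, 75 and 108 counts in Apc1322T and 759, 554 and 701 in ApcMin. Its adjusted p of 0.0485 in edgeR's test was the smallest of all genes, and in DESeq2's test it was 7.85e-30. *Krt6a*, a keratin of activated epithelium, had 32, 13 and 21 counts against 408, 319 and 168, and *Krt4*, a keratin of the oesophagus, had 30, 15 and 29 against 242, 194 and 144. Several other markers were near 0. *Krt5*, the partner of *Krt14*, had 1, 0 and 2 against 1, 14 and 1 counts, *Trp63* had 5, 1 and 1 against 13, 3 and 4, and *Krt1*, *Sprr1b* and *Krtdap* were at 0 in all libraries. The list summed to 74.5 to 101 CPM in Apc1322T and 141 to 160 CPM in ApcMin. The largest part of each sum was *Pkp1*, at 57.4 to 80.6 CPM in Apc1322T and 76.0 to 92.0 CPM in ApcMin, with overlap. *Dsc3* added 35.4 CPM in ApcMin replicate 3. The part of this list in the *Sox21* values was not tested. Of 13 gastric epithelium markers, 12 were tested, with 4 above 0 and 8 below (median -0.34) and overlapping sums of 1841 to 3615 CPM and 1293 to 2970 CPM. *Lipf*, the gastric lipase, stood apart from that list with 4, 10 and 4 counts in Apc1322T and 312, 436 and 239 in ApcMin. Its log2 difference was 5.40, with an adjusted p of 0.219 in edgeR's test and 1.64e-19 in DESeq2's. DESeq2 called 1 gene of the list, beside 1.12% of all genes. Of the genes of acid-secreting cells, *Atp4b* was at 0 in 4 of 6 libraries. *Atp4a* had 64, 32 and 18 counts in Apc1322T and 81, 147 and 229 in ApcMin, with overlap. Its log2 difference was 1.70 (SE 0.55, adjusted p = 0.287 in edgeR's test).

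The intestinal epithelium markers, which define the labelled tissue, were all present and all 8 had log2 differences below 0 (median -0.45), 4 without overlap beside 9.96% of all genes, *Cdx2* being also among the SOX9-responsive genes. They summed to 13940, 17130 and 17580 CPM in Apc1322T and 11580, 13540 and 11360 CPM in ApcMin. All 10 fibroblast markers were above 0 (median 0.92, 4 without overlap beside 11.0% of all genes). DESeq2 called 2 of them (1.12% of all genes), and the sums were 621 to 1551 and 1025 to 3338 CPM. All 8 tested of 9 smooth muscle markers were above 0 as well (median 0.61), with sums of 135 to 271 and 290 to 428 CPM. Paneth cell markers, relevant to *Sox9*, had a median of 0.42 with sums of 1229 to 1985 and 1955 to 2164 CPM. The 10 crypt base stem cell markers had a median of 0.040, with 5 above 0 and 5 below. They ran from *Lgr5* at -0.584 (SE 0.182) to *Olfm4* at 0.875 (SE 0.290), both with overlapping libraries. Their sums were 1411 to 2110 and 1358 to 1653 CPM, with *Prom1* as the largest part (695 to 1272 and 540 to 929 CPM). Tuft cell markers, relevant to *Sox4*, had a median of 0.37 over the 6 tested of 8, with sums of 167 to 264 and 211 to 244 CPM. The 8 enteroendocrine markers had a median of -0.12 (65.9 to 116 and 76.0 to 97.3 CPM), and the 10 T cell markers, relevant to *Sox13*, one of -0.076 (22.9 to 53.5 and 23.8 to 37.7 CPM). Enteric glia and neurons, with 4 genes tested each, had medians of 0.23 (4.99 to 6.31 and 5.58 to 8.25 CPM) and 0.34 (30.7 to 40.5 CPM over all 6 libraries). What part these shifts have in the levels of *Sox9*, *Sox6* or the other members was not tested.

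**Figure D4:**
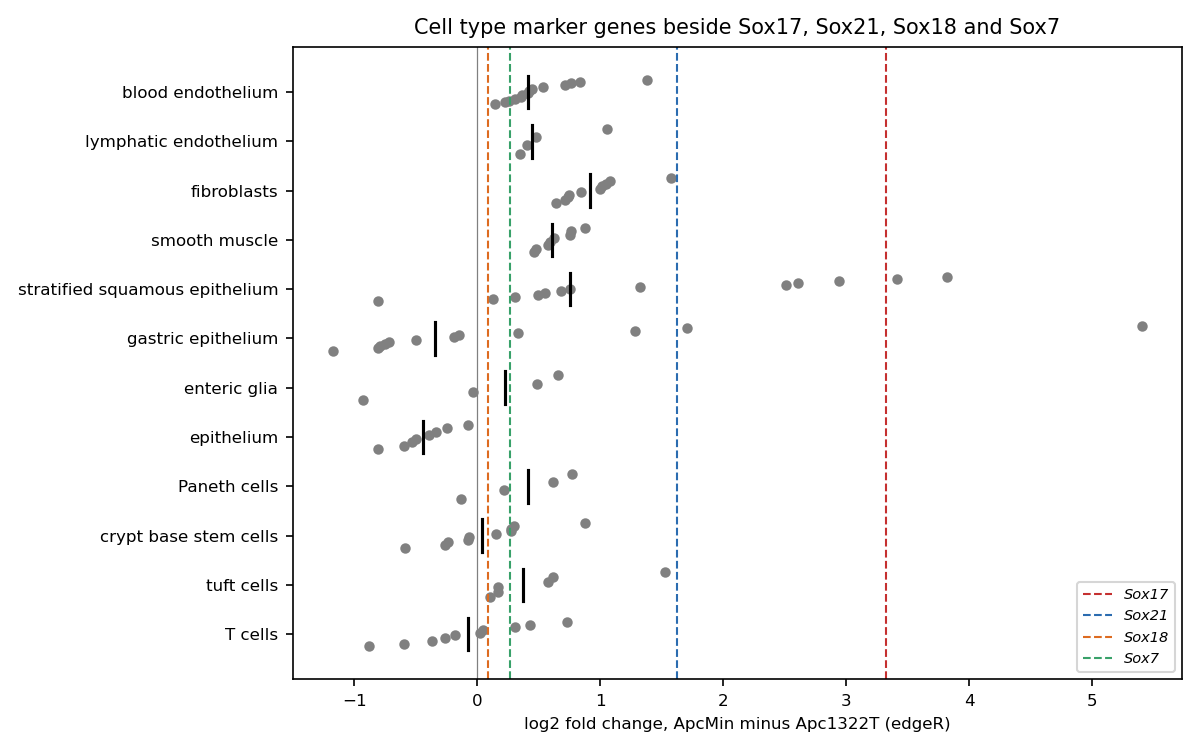
Log2 difference (ApcMin minus Apc1322T, edgeR's fit) of tested marker genes, 1 row per cell type, with a point for each gene, a black bar at the list's median and dashed lines at *Sox17*, *Sox21*, *Sox18* and *Sox7*. Enteroendocrine cells and enteric neurons are not drawn. The endothelium, fibroblast and smooth muscle points all lie to the right of 0 and to the left of *Sox17* at 3.32, the epithelium points all lie to the left of 0, and the point farthest right is the gastric gene *Lipf* at 5.40.

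The genes whose pattern over the 6 libraries was nearest to a member were found by the root mean square (RMS) difference of log2 CPM after each gene's own mean was subtracted. For *Sox17* and *Sox21* this pattern holds the difference between the models that chose the family, so nearness to them is a description only. For *Sox17*, whose own RMS spread was 1.74, 0 genes came within 0.25, and the nearest were *Pcdhb9* (0.34), a gene listed only by its identifier, ENSMUSG00000062783 (0.37), and the pseudogene *Gm7357* (0.38). All of these had few reads in Apc1322T, at most 25 in any library. For *Sox21*, with its own spread of 0.83, 21 genes came within 0.25, led by *Ints6l* (0.11), *Rgs11* (0.13) and *Ifitm1* (0.14). *Sox9* and *Sox4* had small spreads of their own (0.26 and 0.25), so that 3506 and 3673 genes came within 0.25. The nearest were *Alcam* (0.049), *Qpctl* (0.073) and *Prdx6* (0.073) to *Sox9*, and *Zfp775* (0.047), *Ttc23* (0.051) and *Cd276* (0.061) to *Sox4*.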

How the data were processed

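RNA-seq of 6 adenoma libraries was used. Per the study's methods, RNA was made into NEBNext Ultra II Directional libraries from 1 µg of total RNA and sequenced as single 50-base reads, and the authors deposited gene-level estimated counts (expected counts, summed from transcripts quantified with Salmon on GRCm38). Of the deposited values, 31.1% were not whole (tolerance 0.001), and all were rounded. The labels give separate samples, and p-values measure the spread between these. Genes were named by identifier from GENCODE M21 (34582 of 34866 matched). Genes passing filterByExpr (minimum count 10, total 15) were scaled by TMM and tested with edgeR 4.0.16 (robust quasi-likelihood, R 4.3.3) with Benjamini-Hochberg adjustment at 0.01. Log2 CPM used a prior count of 2. DESeq2 1.42.0, limma-voom 3.58.1, other scalings and filters, a replicate block and leaving out each library were alternatives. The fit was tested on simulated data with 200 changed genes. The changes were large and placed in genes with a mean count above 200, so smaller differences and genes with fewer reads were not covered. No pair of libraries was within sampling noise. Levels between genes were divided by exon length. Named genes were the members, every gene of the related lists, *Apc*, markers standing beside a member, and the 3 genes nearest in pattern to *Sox17*, *Sox21*, *Sox9* and *Sox4*. Members and lists were chosen with earlier results of these data known. HMG box sequences are printed for 4 of the 10 members.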

Additional observations from a re-analysis of the deposited data

How the results depend on the processing

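DESeq2 called 194 of 17356 genes (1.12%), and edgeR called 0 genes and 0 members. Among the 194 were 2 members, *Sox17* and *Sox21*. Their values had chosen the family, so this count restates the choice and is not a test of either gene. edgeR called 1 gene with no filter on low counts, 1 at an adjusted p under 0.05, and 0 to 1 when 1 library was left out (1 without ApcMin replicate 3). Genes at an unadjusted p under 0.05 then numbered 1180 to 4117, the highest without Apc1322T replicate 1. The members' median log2 difference of 0.14 ran from 0.023 to 0.40 and the members without overlap from 3 to 6, both highest without Apc1322T replicate 1. *Sox5* ran from -0.14 to 0.42, *Sox18* from -0.25 to 0.34 and *Dll4* from -0.49 to 0.17, so their direction depended on single libraries; the cause was not tested. The order by level moved for 4 members with the longest transcript as length and for 6 with no length. With the replicate number as a block, 0 genes and 0 members passed, and 2113 genes had an unadjusted p under 0.05. Same-numbered libraries came from different mice and their deviations correlated at -0.014, 0.16 and -0.29, so the number was treated as a name only. Depth limits *Sox2* and *Sox8*, with at most 9 counts in any library.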

Other observations

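The genes around *Sox17* and *Sox21* were looked at in a window of 250 kb chosen after their values had been seen. Of 8 genes near *Sox17*, 1 was tested: *Gm7357*, a processed pseudogene 25.6 kb away, with 8, 6 and 1 counts in Apc1322T and 35, 58 and 165 in ApcMin (log2 difference 3.73, SE 0.84, adjusted p = 0.257 in edgeR's test). It shared no run longer than 13 bases with the *Sox17* transcripts. *Rp1*, a photoreceptor gene in the same window, had 0, 1 and 0 counts against 2, 0 and 6. Of 6 genes near *Sox21*, 4 were tested. *Abcc4*, a transporter of cyclic nucleotides and drugs 246 kb away, had 932, 432 and 480 counts in Apc1322T and 1711, 1560 and 2562 in ApcMin, without overlap (log2 difference 1.33, SE 0.27, adjusted p = 0.257), whereas *Dct*, *Tgds* and *Gpr180* were at -0.26, 0.088 and -0.075.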
